A study of Drosophila simulans with 4 samples.

Results

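The genes described here encode proteins of the cytosolic ribosome, of its large (RpL, RpLP) and small (RpS) subunits. They were chosen by a fixed list of 56 D. melanogaster FlyBase identifiers, by the protein they encode and not by a measured value, and all 56 were found among the 15358 genes of the deposited table. RNA came from whole bodies of adult D. simulans males, the first-generation offspring of females caught in the wild, reared at 25°C and aged for 5 days according to the methods or 7 days according to the sample labels. The population of Gotheron in the Rhône Valley (France) gave 1 library from cornmeal medium and 1 from its natural medium, apple, and the population of Mayotte gave 1 library from cornmeal medium and 1 from its natural medium, banana. Each library pooled 100 males from as many isofemale lines, so genotypes within a library cannot be told apart, and population and medium are the only labelled differences between the libraries. The question was how expression of these genes differed between the derived and the ancestral population. According to the methods the banana medium of Mayotte was contaminated with bacteria, and its part in the values below was not tested.

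Ribosomal proteins assemble with ribosomal RNA into the particle that translates messenger RNA. The large subunit forms the peptide bond, and its acidic P proteins form the stalk that recruits translation factors. The small subunit binds the messenger RNA and decodes it. Ribosomal protein genes are transcribed in nearly every cell, in proportion to growth and protein synthesis, and in Drosophila the loss of 1 copy of many of them gives the Minute phenotype of slow development and thin bristles. The proteins are built into the particle in fixed proportions, and their messenger RNAs are known to be regulated together. Neither the table nor the reference gene list pairs the identifiers with gene symbols, so each gene is given by its identifier and is not assigned to a subunit or to a single protein.

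In the deposited table each value is a read count multiplied by 1 factor per library, called a normalised count, and all libraries have the same total. Recovered reads per library ranged from 9829895 to 10365609. The 10 most abundant genes of the table, none of which is a ribosomal protein gene of the list, took 8.18% and 7.55% of the total in the cornmeal and apple libraries of Gotheron and 10.6% and 12.3% in those from cornmeal and banana of Mayotte. The mean normalised count reached 5 in 12508 genes. Over them the log2 difference of Gotheron minus Mayotte had a median of 0.12, which was -0.00459 after TMM scaling, which brings most genes to the same level in every library. Markers of tissues could not be checked without gene symbols.

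The ribosomal protein genes were among the most abundant of the table. By the mean over the 4 libraries, 20 of them were among the 100 most abundant genes and 44 among the 200 most abundant. The mean normalised count had a median of 12100 over the 56 genes, with quartiles of 9260 and 15300. In this 3′ design each messenger RNA gives reads from its end alone, so normalised counts do not grow with transcript length, although the ease of mapping each 3′ end can still differ between genes. The order of the genes by level was nearly the same in every library, with a Spearman coefficient across the 56 genes of 0.95 to 0.98 for the 6 pairs of libraries.

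The highest mean was in FBgn0064225, with normalised counts of 36521 and 41550 in the cornmeal and apple libraries of Gotheron and 31972 and 27470 in the cornmeal and banana libraries of Mayotte. FBgn0017545 followed, with 32886 and 37848 in Gotheron and 35487 and 26527 in Mayotte, and then FBgn0032987, with 23181 and 31308 in Gotheron and 29455 and 19372 in Mayotte. In all 3 genes the Gotheron apple library was the highest and the Mayotte banana library the lowest, but only in FBgn0064225 did both Gotheron libraries lie above both Mayotte libraries. At the low end FBgn0015288 had 1130 and 1329 in Gotheron and 895 and 968 in Mayotte. FBgn0039406 had 2228 and 2401 in Gotheron and 2285 and 1883 in Mayotte, and FBgn0037328 had 3951 and 4758 in Gotheron and 3170 and 2988 in Mayotte. FBgn0015288 therefore ranked 1441 among all genes of the table, whereas FBgn0064225 ranked 25. Counting error was small at these levels. The coefficient of variation that counting alone would give in a gene's lowest library was 3.34% for FBgn0015288 and had a median of 0.988% over the 56 genes, which covers counting error only. Whether a gene shared reads with a similar copy elsewhere in the genome was not tested.

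**Figure D1:**
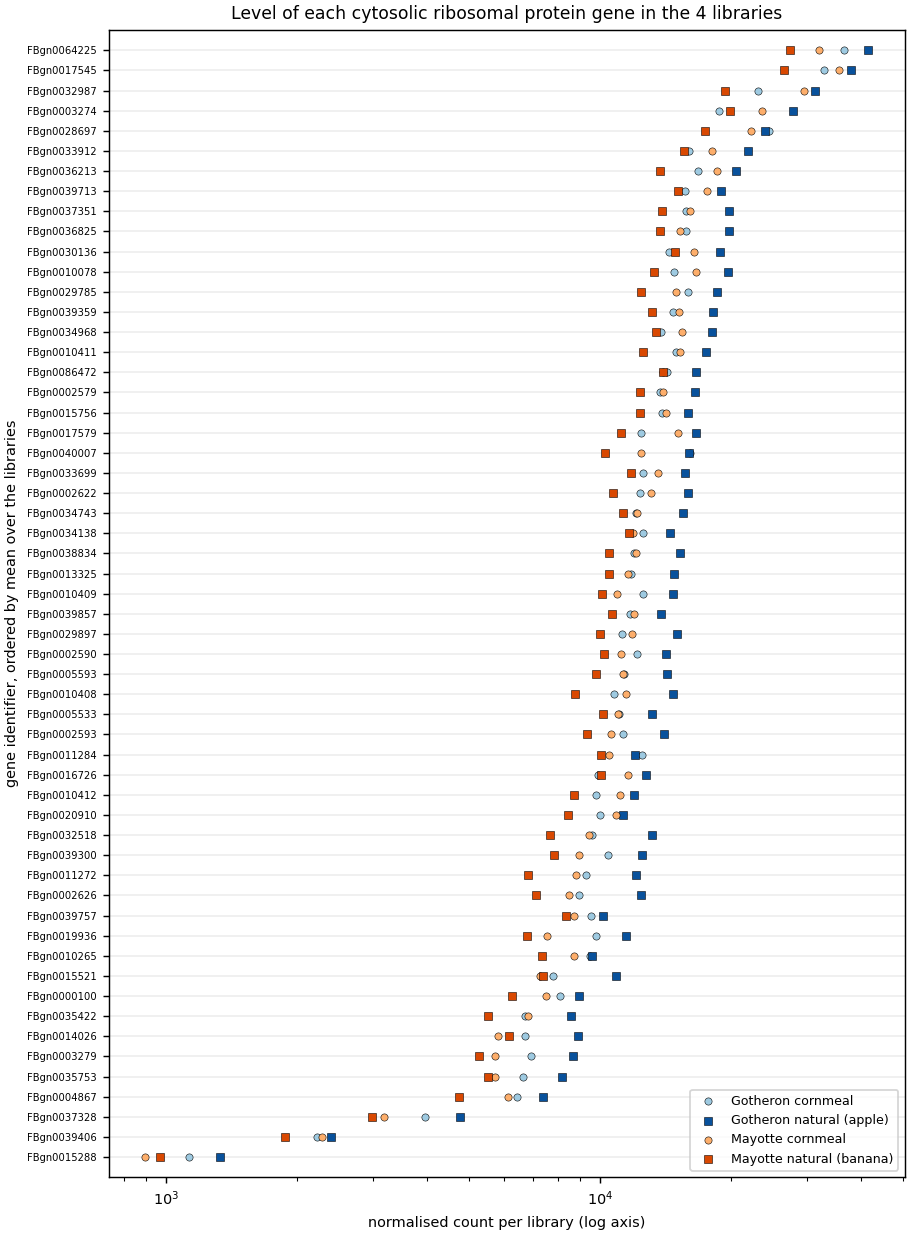
Normalised count (log axis) of each of the 56 ribosomal protein genes in the 4 libraries, ordered by the mean, with 1 point per library and no error bar, since each combination of population and medium has 1 library. The Gotheron apple library (dark blue squares) is the highest in 53 genes and the Mayotte banana library (dark orange squares) the lowest in 50, over levels from 895 to 41550.

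The largest contrast was between the natural libraries of the populations. Together the 56 genes took 7.03% of the total on cornmeal and 8.57% on apple in Gotheron, and 7.1% on cornmeal and 6.01% on banana in Mayotte. The cornmeal libraries were thus almost level, and the natural libraries lay above them in Gotheron and below them in Mayotte. The summed share of the Gotheron libraries was 7.8% ± 1.09 (SD, n = 2) and that of the Mayotte libraries 6.55% ± 0.767 (SD, n = 2), a difference of 1.25 percentage points that did not pass a two-sided exact permutation test (p = 0.667). With 2 libraries against 2 that test cannot give a p below 0.333. The difference was 2.02 points without the Gotheron cornmeal library, 0.475 without the Gotheron apple library and 0.703 without the Mayotte banana library. The share of the 10 most abundant genes ran in the opposite order at its extremes, lowest in the Gotheron apple library and highest in the Mayotte banana library. In totals taken without those 10 genes, the ribosomal protein genes still took 7.65% and 9.27% in the cornmeal and apple libraries of Gotheron and 7.94% and 6.85% in the cornmeal and banana libraries of Mayotte, so the natural libraries kept the extremes. In whole-body RNA, a lower share of cells rich in these messenger RNAs and less of them per cell cannot be told apart.

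Single genes followed the sum closely. The Gotheron apple library was the highest of the 4 in 53 of the 56 genes, where 32.2% of all genes with a mean of at least 5 had it highest. The Mayotte banana library was the lowest in 50 of the 56, where 34.3% of all genes had it lowest. Both held in 47 genes, against 13.5% of all genes. Among the 1361 other genes in the same range of mean level, these shares were 39%, 40.8% and 20.1%, in that order. After TMM scaling the counts of the ribosomal protein genes were 48 for the highest library (25.6% of all genes) and 41 for the lowest (24.5% of all genes).

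The exceptions were few. The Gotheron cornmeal library was the highest in FBgn0011284, FBgn0028697 and FBgn0040007. FBgn0028697 had normalised counts of 24532 and 23943 in the cornmeal and apple libraries of Gotheron, and FBgn0011284, named for this exception after its values were seen, had 12463 and 12039. The Gotheron cornmeal library was the lowest in FBgn0003274, FBgn0016726 and FBgn0030136, and the Mayotte cornmeal library was the lowest in FBgn0014026, FBgn0015288 and FBgn0015521.

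**Figure D2:**
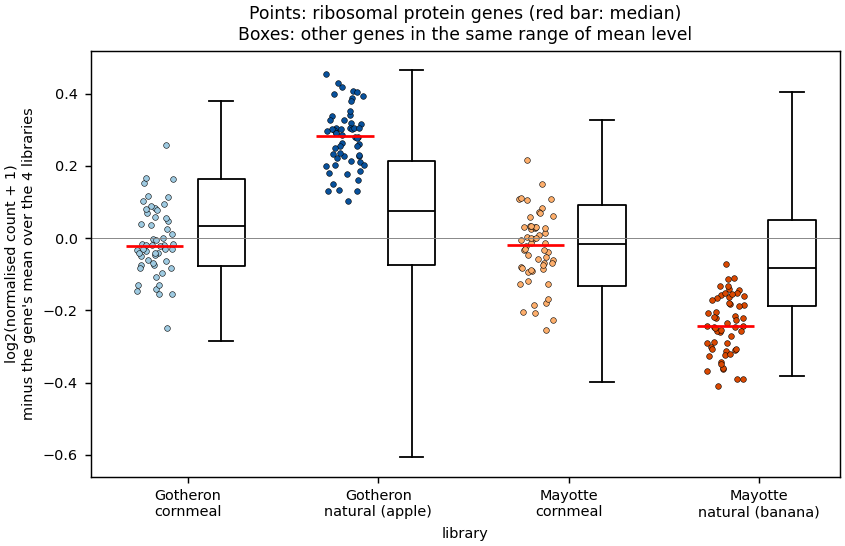
Log2(normalised count + 1) in each library minus the gene's own mean over the 4 libraries, for the 56 ribosomal protein genes (points, red bar at the median) and for the 1361 other genes in the same range of mean level (box at the quartiles, line at the median, whiskers at the 5th and 95th percentiles). The points are highest as a group in the Gotheron apple library and lowest in the Mayotte banana library, and near 0 in both cornmeal libraries.

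The genes differed between libraries by similar amounts. Between the natural libraries, Gotheron minus Mayotte had a median of 0.52 on the log2 scale over the 56 genes, a 1.43-fold higher level, with a standard deviation across genes of 0.14 and a range of 0.25 to 0.83. Over the 1361 other genes whose mean level lay in the same range, the median of that difference was 0.16 with a standard deviation of 0.58. The range ran from rank 25 to rank 1441 among all genes, whereas 44 of the 56 genes were among the 200 most abundant. Most of the 1361 other genes were therefore less abundant than most of the ribosomal protein genes. In each of the 6 pairs of libraries the standard deviation of the log2 difference was 0.13 to 0.17 across the ribosomal protein genes and 0.32 to 0.58 across the other genes of that range. These are descriptions of single libraries and have no replicate check.

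Between populations, no ribosomal protein gene passed either test. In a procedure rebuilt after the overdispersed Poisson model of the study, with a Wald test and every listed gene kept (the 2-step procedure), which takes the dispersion of each gene from a curve over genes of similar level, 0 of the 56 genes had a Benjamini-Hochberg adjusted p below 0.05 with the libraries of both populations separated, where 5.22% of all listed genes did. At an unadjusted p under 0.05 there were 8 of 56 (14.3%), against 16.6% of all genes, and all 8 were higher in Gotheron, as were 11.2% of all genes at that p. The dispersion of this procedure was taken around 1 mean over the 4 libraries, so it contains the population difference itself. A gene whose dispersion lies on the curve could hardly reach a p under 0.05. The 0 calls of this procedure therefore do not show that a population difference is absent. In limma on log2(normalised count + 1), which estimates the spread within populations, 0 of 56 passed an adjusted threshold of 0.05, where 1.09% of all genes tested did. At an unadjusted p under 0.05 there were 5 of 56 (8.93%), against 14% of all genes, again all 5 higher in Gotheron, as were 9.86% of all genes at that p. edgeR and DESeq2 were run on read counts without the Gotheron apple library, whose reads were not accepted as recovered. That library was the highest one in most of these genes, and without it Mayotte alone gave the spread. There edgeR called 0 of the 56, against 5.11% of all genes tested, and DESeq2 0, against 1.83%, with 0 of the 56 at an unadjusted p under 0.05 in both.

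The point estimates nevertheless all had the same sign. The log2 difference of Gotheron minus Mayotte was above 0 in 56 of 56 genes, against 66% of all genes tested. It had a median of 0.25 and a range of 0.06 to 0.57, beside a median of 0.12 over all genes tested. After TMM scaling it was above 0 in 52 genes (49.4% of all genes), with a median of 0.12 beside -0.00459 over all genes. The excess over the median of all genes was 0.129 in the deposited scaling, 0.128 after TMM scaling and 0.205 after quantile normalization. TMM scaling uses 1 factor per library and moves both medians almost alike, so only quantile normalization could change this excess much. Single libraries decided its size. The median of the 56 genes was 0.404 without the Gotheron cornmeal library and 0.365 without the Mayotte cornmeal library, beside 0.118 and 0.128 over all genes. It was 0.101 without the Gotheron apple library, below the 0.129 of all genes, and 0.145 without the Mayotte banana library, beside 0.111. Both Gotheron libraries lay above both Mayotte libraries in 29 of 56 genes, where 34.8% of all genes did, and both Mayotte libraries lay above both Gotheron libraries in 0 of 56, where 12.8% did. The count of 29 was 11 after TMM scaling, where 20.9% of all genes were so ordered, and 13 after median-of-ratios scaling (21.5% of all genes). It was 24 when the 10 most abundant genes were left out of the totals (27.9%) and 35 after quantile normalization (22.7%). The Gotheron cornmeal and Mayotte cornmeal libraries limited this count, and leaving out a library can only raise it or leave it unchanged. It was 56 without the Gotheron cornmeal library, where 50.6% of all genes were so ordered. Without the Mayotte cornmeal library it was 53, beside 49.3% of all genes. It stayed at 29 (51.8%) without the Gotheron apple library, near the 52% of all genes. Without the Mayotte banana library it also stayed at 29, beside 46.6% of all genes.

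The largest differences between the populations were in FBgn0019936, FBgn0040007 and FBgn0003279. FBgn0019936 had normalised counts of 9774 and 11494 in the cornmeal and apple libraries of Gotheron and 7540 and 6795 in the cornmeal and banana libraries of Mayotte. The groups did not overlap, with means of 10600 ± 1220 and 7170 ± 527 (SD, n = 2 each). Its log2 difference was 0.57 (standard error 0.19, 95% interval 0.130 to 1.002, Benjamini-Hochberg adjusted p = 0.251 from limma), and the 2-step procedure gave a ratio of 1.48 with an adjusted p of 0.109. FBgn0040007 had 16127 and 16049 in Gotheron and 12425 and 10283 in Mayotte. It was nearly equal in both Gotheron libraries, which was rare among these genes, and its log2 difference was 0.51 (standard error 0.20, adjusted p = 0.33 from limma).

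FBgn0003279 had normalised counts of 6938 and 8656 in Gotheron and 5738 and 5258 in Mayotte, with a log2 difference of 0.50 (standard error 0.19, adjusted p = 0.304 from limma). Without the Gotheron cornmeal library both tests called 3 genes at an adjusted 0.05, namely FBgn0003279, FBgn0019936 and FBgn0037328, with adjusted p-values of 0.0434, 0.0448 and 0.0321 in the 2-step procedure and 0.043, 0.046 and 0.0312 in limma. In the same fits 8.79% and 8.7% of all genes were called. Gotheron then had 1 library and was assumed to vary like Mayotte. With the dispersion taken within populations instead of around a common mean, the 2-step procedure called 8 genes of the 56 (14.3%), all of them higher in Gotheron, beside 12.8% of all genes called and 8.87% called with the higher mean in Gotheron. These were the 3 genes above with FBgn0040007 and FBgn0015288, and FBgn0002626, FBgn0011272 and FBgn0039300, which were singled out after their values were seen.

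**Figure D3:**
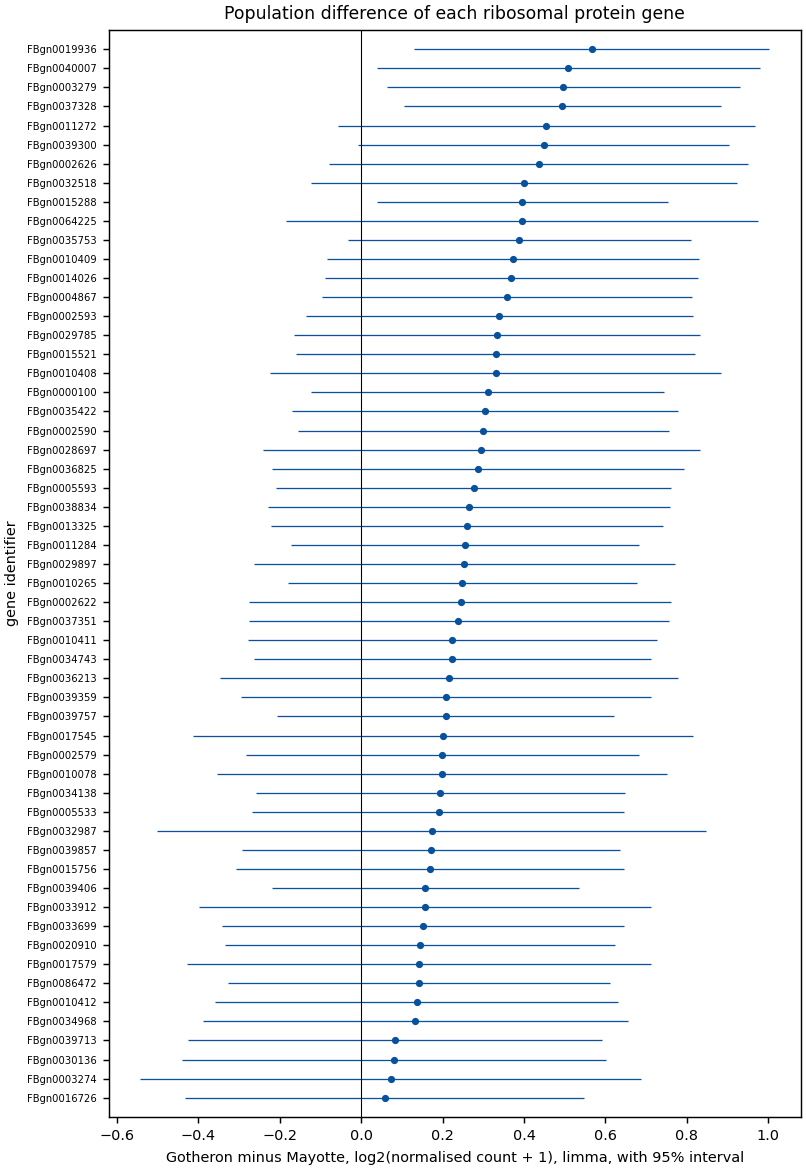
Log2 difference of Gotheron minus Mayotte from limma for each of the 56 ribosomal protein genes, on log2(normalised count + 1), with its 95% interval (2 libraries per population). Every point lies above 0, from 0.06 to 0.57, and the intervals of 5 genes exclude 0.

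The smallest differences were in FBgn0016726, FBgn0003274 and FBgn0030136. FBgn0016726 had normalised counts of 9905 and 12771 in Gotheron and 11599 and 10060 in Mayotte, so that both Mayotte values lay between the Gotheron values. Its log2 difference was 0.06 (95% interval -0.43 to 0.55), an interval that also covers the median of the 56 genes. FBgn0003274 had 18758 and 27802 in Gotheron and 23613 and 19960 in Mayotte, with a log2 difference of 0.07 (95% interval -0.54 to 0.69). FBgn0030136 had 14440 and 18901 in Gotheron and 16427 and 14851 in Mayotte, again with the Mayotte values inside the Gotheron range. The sign of the difference in these 3 genes turned under TMM and median-of-ratios scaling.

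Between media, the cornmeal libraries did not separate from the natural libraries in any ribosomal protein gene. With population as a term, limma passed 0 of the 56 genes at an adjusted 0.05, where 0.016% of all genes tested passed, and the 2-step procedure passed 0, where 1.47% of all genes did. At an unadjusted p under 0.05 there were 0 of 56 in both, against 6.89% and 10% of all genes. These tests set cornmeal against apple and banana averaged. Shifts of opposite sign in the populations cancel in that difference and add to its spread. The tests therefore cannot tell such shifts from no difference in either population. In the 2-step procedure the dispersion, taken around 1 mean over the 4 libraries, also contains the medium difference itself. Both cornmeal libraries lay above both natural libraries in 0 of 56 genes (15.2% of all genes), and both natural libraries lay above both cornmeal libraries in 0 of 56 (12.5% of all genes). The log2 difference of cornmeal minus natural had a median of -0.05 over the 56 genes and a range of -0.25 to 0.19, beside a median of 0.03 over all genes tested.

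In 5 of the 6 genes at the ends of that range, the media were ordered alike in both populations. FBgn0028697, at 0.19 (95% interval -0.49 to 0.88), FBgn0040007, at 0.14 (95% interval -0.44 to 0.72), and FBgn0010265, at 0.11 (95% interval -0.40 to 0.63), had the largest differences in favour of cornmeal. FBgn0010265 had normalised counts of 9470 and 9566 in the cornmeal and apple libraries of Gotheron and 8712 and 7369 in the Mayotte libraries. FBgn0015521 had 7811 and 10900 in Gotheron and 7267 and 7405 in Mayotte, with a difference of -0.25 (95% interval -0.78 to 0.27). FBgn0014026 had 6720 and 8918 in Gotheron and 5821 and 6171 in Mayotte, also at -0.25, and FBgn0015288 was at -0.17. In each of these last 3 genes the natural library was the higher one in both populations. The limma adjusted p-values of these 6 genes were 0.912 to 0.977.

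The differences between the media had opposite signs in the populations. In Gotheron the natural library was higher than the cornmeal library in 53 of 56 genes, with a median log2 difference of 0.30 (1.23-fold). In Mayotte the natural library was lower than the cornmeal library in 53 of 56 genes, with a median log2 difference of -0.21, so that cornmeal was 1.16-fold higher. The median of natural minus cornmeal over all genes was -0.0226 in Gotheron and -0.0299 in Mayotte. Natural above cornmeal in Gotheron together with natural below cornmeal in Mayotte was found in 50 of 56 genes, where 24.3% of all genes and 32.8% of the 1361 other genes in the same range of level had this order. The reverse order was found in 0 of 56, where 23.7% of all genes had it. The natural library was the higher one in both populations in 3 genes (22.4% of all genes) and the lower one in both in 3 (29.6% of all genes). The natural medium was apple in one population and banana in the other, so population, kind of fruit and single library cannot be told apart.

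Tested gene by gene, this interaction did not pass. In the overdispersed Poisson fit the test of the interaction of population and medium called 0 of 56 genes at an adjusted 0.05, where 0.508% of all genes were called, and 1 of 56 at an unadjusted p under 0.05, where 7.66% of all genes were. The population difference of the natural libraries minus that of the cornmeal libraries was above 0 in all 56 genes, with a median of 0.49 and a range of 0.02 to 1.04 on the log2 scale, beside a median of -0.000839 over all genes with a mean of at least 5. The smoothed dispersion at the level of these genes had a median of 290, and their own dispersion had a median of 292. This dispersion was taken around 1 mean over the 4 libraries, so it contains the interaction itself. A gene whose dispersion lies on the curve could hardly reach a p under 0.05 in this test. The 0 calls therefore do not show that an interaction is absent. With 1 library for each population and medium there is no replicate of the interaction.

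The largest interactions were in FBgn0032987, FBgn0017579 and FBgn0010408. FBgn0032987 was lower in Gotheron than in Mayotte on cornmeal, at -0.35 on the log2 scale, and higher in Gotheron on the natural media, at 0.69, a difference of 1.04 (unadjusted p = 0.0477, adjusted p = 0.638 over all genes in the overdispersed Poisson fit, with no replicate). FBgn0017579 had normalised counts of 12404 and 16605 in the cornmeal and apple libraries of Gotheron and 15148 and 11170 in the Mayotte libraries, a difference of 0.86. FBgn0010408 had 10759 and 14765 in Gotheron and 11502 and 8743 in Mayotte, a difference of 0.85. In all 3 the order of the populations on cornmeal was the reverse of that on the natural media.

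**Figure D4:**
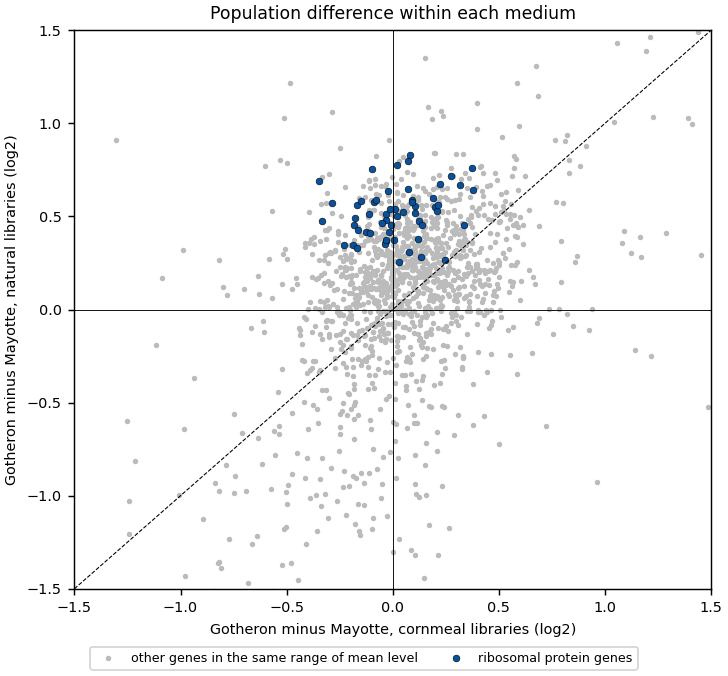
Log2 difference of Gotheron minus Mayotte between the cornmeal libraries (horizontal axis) and between the natural libraries (vertical axis), on log2(normalised count + 1), for the 56 ribosomal protein genes (blue) and the 1361 other genes in the same range of mean level (grey), of which 41 lie outside the plotted range. The dashed line marks equal differences, and all 56 blue points lie above it, at 0.25 to 0.83 on the vertical axis and on both sides of 0 on the horizontal axis.

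On cornmeal alone, in the deposited scaling, the populations were level over these genes as a group while single genes were not. The Gotheron cornmeal library was the higher one in 29 genes and the Mayotte cornmeal library in 27, where 62.7% of all genes were higher in Gotheron. The median log2 difference was 0.00681 over the 56 genes, below the 0.12 over all genes. Measured against the median of all genes, the 56 genes as a group were thus not level but lower in Gotheron. The 1361 other genes in the same range of mean level had a median of 0.0523, with 57.8% higher in Gotheron. That median is closer to the value of the 56 genes. Each of these medians compares 1 library with 1 library. Over the 56 genes the range was -0.35 to 0.38, wide against counting error. At the top were FBgn0040007 at 0.38 and FBgn0019936 at 0.37, and at the bottom FBgn0032987 at -0.35 and FBgn0003274 at -0.33. The more abundant genes tended towards Mayotte, with a Spearman coefficient of -0.52 between the mean level and this difference across the 56 genes, which share the same libraries and are not independent replicates.

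Single genes also departed from the group. When the median of the 56 genes was subtracted from each library, the standard deviation of a gene over the 4 libraries had a median of 0.0946 on the log2 scale, beside 0.22 before subtraction. After subtraction both Gotheron libraries lay above both Mayotte libraries in 13 genes and both Mayotte libraries above both Gotheron libraries in 13, with overlap in 30. Subtracting the median of these genes itself balances the directions among them. Over all genes, 8.15% and 27.7% had those orders after the same subtraction. FBgn0019936 was at 0.19 and 0.12 in the cornmeal and apple libraries of Gotheron and at -0.19 and -0.12 in the cornmeal and banana libraries of Mayotte. FBgn0016726, at the other end, was at -0.13 and -0.07 in Gotheron and at 0.09 and 0.11 in Mayotte. These values are relative to the other ribosomal protein genes and carry no test. When the libraries were levelled on the median of these genes, a setting chosen after the data were seen, limma and the 2-step procedure each called 0 of the 56 at an adjusted 0.05, with 0 at an unadjusted p under 0.05 in both.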

How the data were processed

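The authors trimmed the 34-base 3′ cDNA reads with seqclean and mapped 32-mers with ELAND, allowing 2 mismatches, first against D. melanogaster and, for the reads left over, against D. simulans. They moved counts of D. simulans genes to the D. melanogaster ortholog. The submitters' processing notes also name CASAVA, with versions and builds not given in the sources used here. What the authors deposited is a linear signal, read counts scaled by 1 factor per library to equal totals. Divided by the smallest nonzero value of its library, 100% of the values were whole within 0.01. The factor of the Gotheron apple library was near 1 and its reads were not accepted as recovered, so count tests used the other 3 libraries.

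In R 4.3.3, a Pearson dispersion around 1 mean per gene was smoothed by loess (span 0.75, degree 2) on the log scale, and the ratio of Gotheron to Mayotte was tested on the log scale with a Wald test over all 15358 genes. A gene was called at a Benjamini-Hochberg adjusted 0.05 if the populations did not overlap. A likelihood ratio test, the form given in the methods, was an alternative. The authors left out immunity genes before testing. Without gene symbols these could not be told apart, and they were not removed here. Medium, given population, and interaction were tested as deviances over the same dispersion. Genes with a mean of 5 or more were also tested by limma 3.58.1, with a trended prior, on log2(normalised count + 1). This log scale understates changes of low genes. edgeR 4.0.16 and DESeq2 1.42.0 were alternatives, with scalings, filters, pseudocounts, dispersions and each library left out. The scripts were tested on simulated data with planted changes far larger than the differences of the ribosomal protein genes. That check does not show whether differences of their size would be found. Replicates of a population differ in medium, and p-values measure the spread between these libraries.

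The genes named are those with the 3 highest and 3 lowest levels, the 3 largest and 3 smallest differences between populations and between media, and the 3 largest interactions. The list follows the encoded protein, but it and the tests were chosen with earlier results of these data known. No identifier was found in the reference gene table, so gene symbols, sequences, other pathway lists and tissue markers were not used here.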

Additional observations from a re-analysis of the deposited data

Results flagged for a closer look

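The ribosomal protein genes differed between the media in opposite directions in the populations. Their summed share of the library total, natural minus cornmeal, was 1.54 percentage points in Gotheron and -1.09 percentage points in Mayotte. The median log2 difference over the 56 genes, natural minus cornmeal, was 0.296 in Gotheron and -0.208 in Mayotte. Each value compares 1 library with 1 library, and the difference between the populations was not tested for the sum or the median.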

How the results depend on the processing

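The 5 counts of called genes, the 2 medians and the summed share were recomputed under those of 26 alternative settings that apply to each, which gave 88 values. In 84 of these the count of calls was the same or the value moved by less than the spread between replicates. In the test between populations, leaving out 1 library at a time gave 0 to 3 called genes in the 2-step procedure and 0 to 3 in limma, with the 3 only without Gotheron replicate 1, the cornmeal library. In the 2-step procedure 1 gene, FBgn0019936, was called with a quadratic relation of variance and mean, and 8 with the dispersion computed within populations. With the medium as a replicate block, 0 genes were called in either test. With 1 library left out, the median log2 difference between populations was 0.101 to 0.404 and the difference in summed share 0.475 to 2.02 percentage points. In the 12 log2 differences of named genes, 152 of 174 recomputed values kept their direction and side of the threshold, and 2 passed it (FBgn0019936 at 0.68 and FBgn0003279 at 0.66, without Gotheron replicate 1). Direction turned only for FBgn0016726, FBgn0003274 and FBgn0030136, in that order at -0.07, -0.05 and -0.05 under TMM scaling, at -0.06, -0.05 and -0.04 under median-of-ratios scaling, and at -0.22, -0.21 and -0.2 with libraries levelled on the median of the ribosomal protein genes. They were at -0.26, -0.35 and -0.25 in edgeR and at -0.26, -0.35 and -0.24 in DESeq2, both without the Gotheron apple library. With 1 library left out they ranged from -0.13 to 0.24, from -0.21 to 0.36 and from -0.11 to 0.28. The cause was not tested. The coefficient of variation from counting was at most 3.34%.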
